A study of Mus musculus with 12 samples.

Results

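The genes described here are 10 that encode proteins of the lipid droplet, the organelle in which cells store triglyceride. They are the 5 perilipins (Plin1, Plin2, Plin3, Plin4 and Plin5), the CIDE family members Cideb and Cidec, the lipase inhibitors G0s2 and Hilpda, and the droplet budding factor Fitm2. They were taken by gene name from a table of 54532 genes, and each name was found in the table. Their read counts were compared in 4 groups of 3 libraries each: white fat of mice labelled knockout for the cluster of miR-322, miR-503 and miR-351 (KO WAT), white fat of wild-type mice (WT WAT), KO liver and WT liver. All mice were male, 52 weeks old and fasted for 12 h before tissue was taken, and the fat was inguinal. The labels do not say how the knockout allele was made, whether the libraries of a group came from separate animals, or what the genetic background was. The p-values below therefore measure the spread between these libraries.

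Droplets bud from the endoplasmic reticulum, where triglyceride gathers between the leaflets of the membrane, and they are covered by a single phospholipid layer that binds coat proteins. The perilipins are the main coat, and they set how far lipases reach the stored fat. Adipocytes hold 1 large droplet kept by Plin1 and Cidec, whereas hepatocytes hold small droplets coated mainly by Plin2 and Plin5, which grow when fasting sends fatty acids from fat to liver. Many of these genes are known targets of the PPAR nuclear receptors.

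The cluster named in the labels holds 3 microRNAs, whose mature 5p sequences (RefSeq, GRCm38.p6, X chromosome, minus strand) are shown because their seeds define which messages they could pair with. Capitals mark the seed, bases 2 to 8.
mmu-miR-322-5p: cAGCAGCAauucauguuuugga
mmu-miR-503-5p: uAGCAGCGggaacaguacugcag
mmu-miR-351-5p: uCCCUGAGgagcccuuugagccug
The seeds of miR-322 and miR-503 differ in their last base only, and that of miR-351 is unrelated. Among the members' longest 3′ UTRs (GENCODE M21, GRCm38), the complement of a seed was found in those of 3 of the 10 genes. These sites are shown on the transcript strand (DNA letters) with the match in capitals, and all lie on minus-strand genes, at chr1:193272316-193272343, chr14:55754163-55754190, chr17:56278687-56278714 and chr17:56277706-56277733.
G0s2, site for miR-322: ctgggactgattTGCTGCTgtgcagcac
Cideb, site for miR-503: tcccaccgtaatCGCTGCTtcatctagg
Plin3, site for miR-351: gttccccttgatCTCAGGGaaggtgggg
Plin3, site for miR-322: tcctctgggaacTGCTGCTtttctgttt
Of 21018 genes of the count table with an annotated 3′ UTR, 20.3% held the miR-322 match, 3.92% the miR-503 match and 13.1% the miR-351 match. So 2, 1 and 1 of 10 members is not far from what any such set of genes holds. The members' UTRs had a median length of 737 bases, against 960 bases over all genes. A match is a string of letters, not a measured site. Plin1, Plin2, Plin4, Plin5, Cidec, Hilpda and Fitm2 had none in these UTRs.

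Libraries held 14531438 to 15971178 counts in 19295 to 22963 detected genes, and no replicate pair agreed within sampling error (chi-square divided by its degrees of freedom, 9.83 to 77.0). Levels are CPM (counts scaled to the library total) and, between genes, CPM per kilobase of the gene length given in the deposited table. The microRNA genes Mir322 and Mir503 had 0 counts in all 6 KO libraries, whereas Mir351 counts were higher in KO mice (146 in KO WAT against 33 in WT WAT, 41 in KO liver against 9 in WT liver). In WT mice, Mir322 had 12, 10 and 15 counts in WAT but 2, 1 and 0 in liver. Mir503 had 17, 21 and 10 counts in WT WAT and 4, 4 and 8 in WT liver. The loss of Mir503 thus shows in these long-RNA libraries of both tissues, that of Mir322 in fat alone and that of Mir351 in neither. Alb, the plasma protein of hepatocytes, differed widely among fat libraries, at 1977, 228 and 731 CPM in KO WAT and 1863, 125 and 76.8 CPM in WT WAT, so fits without the fat library highest in it in each genotype (replicate 1 of each) stand beside the results they change. Adipoq and Lep, which mark adipocytes, were far above Ucp1, which marks brown fat: Adipoq reached 2012 to 2366 CPM in KO WAT and 1581 to 2195 CPM in WT WAT, and Ucp1 had at most 2 counts in any fat library.

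Which of these genes each tissue used came first. In both genotypes Plin1, Plin4, Cidec and Hilpda were higher in WAT than in liver, and Plin5 and Cideb were lower, by edgeR's quasi-likelihood test with Benjamini-Hochberg adjustment. Plin1, the adipocyte coat protein that holds back lipolysis until it is phosphorylated, had 1810.0, 2749 and 2396 CPM in KO WAT and 1812, 1867 and 1469 CPM in WT WAT, against 1 count in the 3 KO liver libraries together and 0 counts in WT liver. Measured against a floor of 3 counts over the WT liver group, Plin1 was at least 25902-fold higher in WT WAT. The KO ratio was 103957 with a counting interval (95%) of 18658 to 4106070, since it rests on that 1 count. In liver it was at or under that floor. In bulk tissue such as this, fewer cells of a type and less RNA per cell cannot be told apart.

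Plin4, a perilipin of early adipocyte droplets, and Cidec, which joins small droplets into larger ones, were the most abundant members in fat. Plin4 had 2846 to 4250.2 CPM in KO WAT and 2458 to 4095 CPM in WT WAT, against 18.5 to 48.9 CPM in KO liver and 34.5 to 77.6 CPM in WT liver. Its WAT over liver log2 fold change was 6.05 ± 0.43 (SE) in KO mice and 5.29 ± 0.42 in WT mice (edgeR adjusted p = 1.31e-06 and 1.72e-05). For Cidec, 3585 to 5284 CPM in KO WAT and 3565 to 4674 CPM in WT WAT stood against 8.59 to 23.8 CPM in KO liver and 17.0 to 50.4 CPM in WT liver. The fold changes of Cidec were 7.14 ± 0.46 in KO and 6.25 ± 0.48 in WT mice (edgeR adjusted p = 7.75e-07 and 2.03e-05). Hilpda, a lipase inhibitor induced by low oxygen and by fatty acids, was a minor transcript in either tissue, with 6.77 to 12.6 CPM in KO WAT, 9.12 to 12.5 CPM in WT WAT, 1.35 to 1.70 CPM in KO liver and 1.89 to 2.64 CPM in WT liver. It was 1.77 ± 0.31 higher in WAT on the log2 scale in KO mice and 1.45 ± 0.27 higher in WT mice (edgeR adjusted p = 0.000437 and 0.00124).

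Plin5, which ties droplets to mitochondria in tissues that burn fat, and Cideb, which helps load lipid onto hepatocyte lipoproteins, ran the other way. Plin5 had 4.29, 10.4 and 13.7 CPM in KO WAT and 6.71, 7.83 and 9.50 CPM in WT WAT, against 51.8, 51.8 and 79.1 CPM in KO liver and 131, 87.9 and 115 CPM in WT liver. The log2 fold change of Plin5 was -3.52 ± 0.44 in KO and -4.62 ± 0.20 in WT mice (edgeR adjusted p = 0.000534 and 3.32e-07). Cideb had 15, 10 and 7 counts in KO WAT and 28, 0 and 0 counts in WT WAT, against 884 to 913 counts in KO liver and 978 to 1078 counts in WT liver. With all groups set per 10000 Alb counts, Cideb had 5.16, 28.1 and 6.04 in KO WAT and 9.52, 0 and 0 in WT WAT, against 7.47 to 8.06 in KO liver and 7.28 to 8.17 in WT liver. The exact 95% Poisson intervals, which cover counting error only, reached the liver values in 5 of the 6 fat libraries and lay above them in KO WAT replicate 2 (13.5 to 51.6). The part of hepatocyte RNA in the Cideb counts of fat was not tested. Cideb also shares 1451 bases with Nop9 on the opposite strand, which had 854 counts in KO WAT, 756 in WT WAT, 795 in KO liver and 918 in WT liver. By library, Nop9 had 284, 260 and 212 counts in WT WAT, beside 28, 0 and 0 for Cideb. The strand setting of the counting is not given in the sources used here. The 7 to 28 Cideb counts of the fat libraries that had any therefore cannot be told apart from Nop9 reads with certainty.

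The other 4 members depended on how the tissues were scaled. The TMM factors of edgeR lay at 1.29 to 1.35 in WAT and 0.731 to 0.777 in liver, where Alb alone held 76229 to 93137 CPM. With library totals in their place, which is the CPM scale, each tested member's WAT over liver fold change moved up by 0.83 to 0.84 on the log2 scale. Plin2, the coat of droplets in most cells that are not adipocytes, was lower in WAT by the TMM fit (-1.28 ± 0.24 in KO, -1.71 ± 0.36 in WT), but the call was lost on library totals (-0.44 and -0.88, adjusted p = 0.108 and 0.0546). G0s2, which binds the triglyceride lipase ATGL and blocks it, had a TMM fold change of -0.66 ± 0.21 in KO mice (edgeR adjusted p = 0.0153) that turned to 0.17 on library totals. In WT mice it was lower in WAT on either scale (-1.79 ± 0.16 and -0.97). The KO call was also lost without KO liver replicate 1 (-0.43, edgeR adjusted p = 0.0660) and without KO WAT replicate 1 (-0.60, edgeR adjusted p = 0.0544). Fitm2, a protein of the endoplasmic reticulum needed for droplets to bud, was 0.60 ± 0.14 higher in KO WAT (edgeR adjusted p = 0.00253, and 1.44 on library totals). That call was lost with the trend of each library on GC content and transcript length removed (0.22, edgeR adjusted p = 0.128). In WT mice Fitm2 passed the threshold on library totals (0.95) but not with TMM (0.12 ± 0.15). Plin3, a soluble perilipin that coats small new droplets, passed in neither genotype with TMM (0.29 ± 0.14 in KO, -0.07 ± 0.12 in WT) and was higher in WAT on library totals (1.13 and 0.76).

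In all, 9 of 10 members passed the threshold between the tissues of KO mice, 5 higher and 4 lower in WAT, and 8 of 10 between those of WT mice, 4 higher and 4 lower. Over all genes tested, 36.8% were higher and 32.6% lower in KO WAT, and 37.3% were higher and 33.5% lower in WT WAT, so passing here is common. On library totals 9729 genes were higher and 2551 lower in KO WAT, against 5757 and 5103 with TMM, and 9544 were higher and 2691 lower in WT WAT, against 5866 and 5270. Both tissue comparisons share libraries with the genotype comparisons below.

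**Figure D1:**
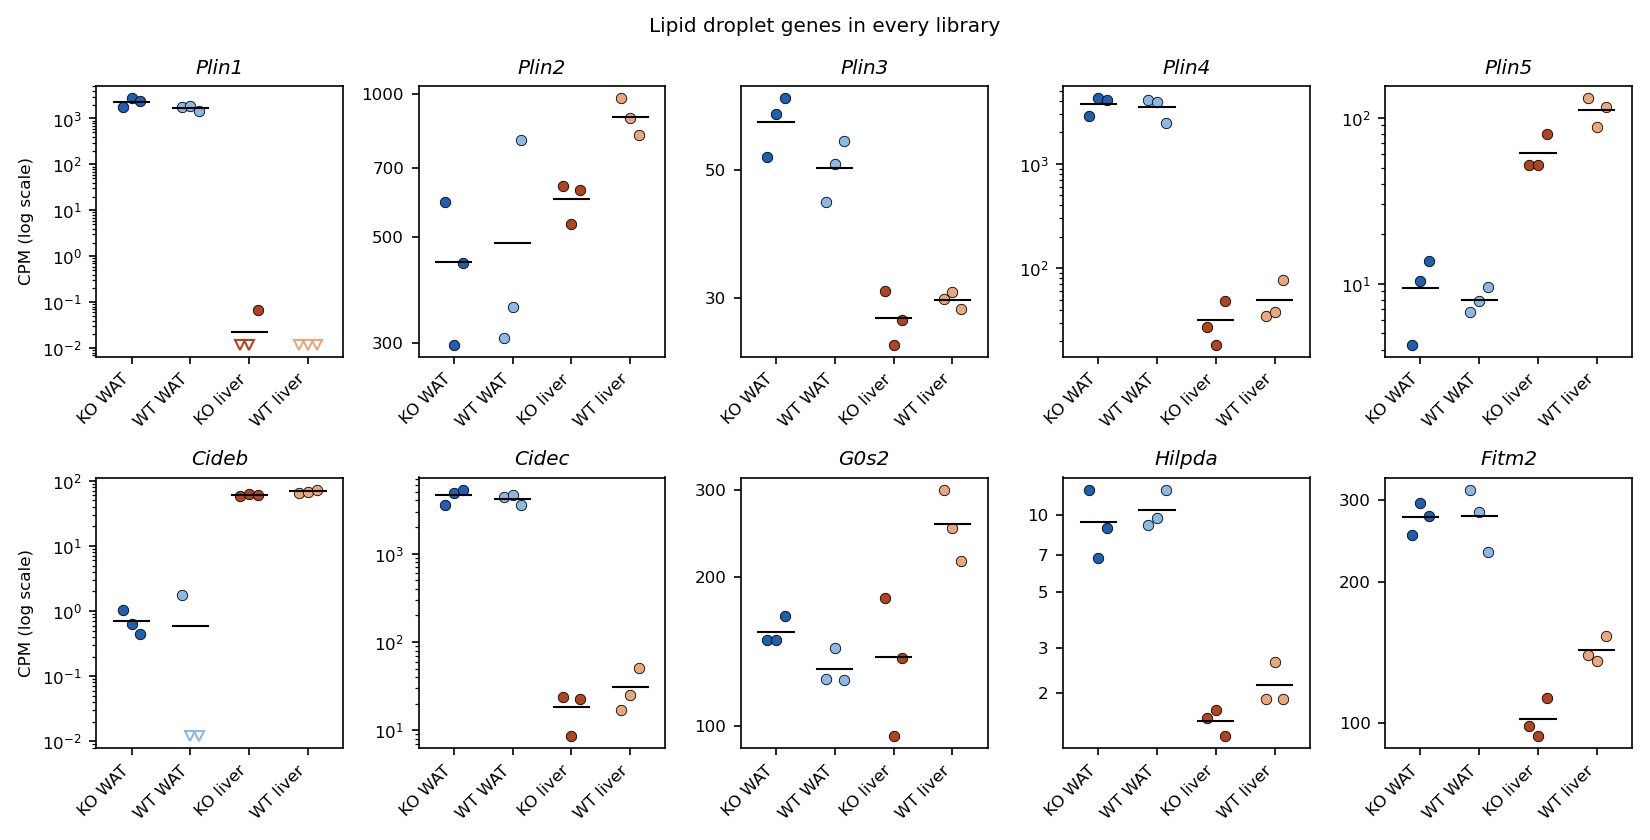
CPM of each member (log scale) in every library, with a bar at the group mean of 3 libraries; open triangles mark libraries with 0 counts, drawn at the foot of the panel. Plin1, Plin4 and Cidec separate the tissues by far more than the genotypes, and Plin2, Plin5, G0s2 and Fitm2 are lower in each KO liver library than in any WT liver library.

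Set per kilobase of gene length, the members ranked differently in the 2 tissues. Cidec led in fat at 2473 ± 480.0 CPM per kilobase in KO WAT and 2258 ± 306 in WT WAT (SD, n = 3 each), and it stood clear of Plin4 (648 ± 135 and 603 ± 155) and Plin1 (499 ± 102 and 369 ± 46.4). Plin4 and Plin1 overlapped in KO WAT, with 493 to 736 and 389 to 591 CPM per kilobase, but not in WT WAT. G0s2 followed at 171 to 192 CPM per kilobase in KO WAT and 142 to 165 in WT WAT, beside Plin2 at 84.8 to 169 and 87.4 to 228, which overlapped it in WT WAT alone. Fitm2 (69.3 and 69.7), Plin3 (15.99 and 13.3), Hilpda (8.54 and 9.47), Plin5 (4.52 and 3.84) and Cideb (0.471 and 0.397) closed the order in KO and WT WAT.

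In liver, G0s2 and Plin2 stood far above the rest. Plin2 had 171 ± 17.1 and G0s2 158 ± 49.5 CPM per kilobase in KO liver, and they had 256 ± 22.6 and 293 ± 48.8 in WT liver, and their values overlapped in both genotypes. Cideb (40.5 in KO, 46.3 in WT liver), Plin5 (29.2 and 53.3) and Fitm2 (25.6 and 36.0) came next. Cideb and Plin5 overlapped in WT liver but not in KO liver, where each Plin5 value was below each Cideb value. Cidec (9.86 and 16.6), Plin3 (7.34 and 7.88), Plin4 (5.47 and 8.67) and Hilpda (1.40 and 1.94) were low, and Plin1 was at or near 0.

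The perilipin coat of a tissue can be described by the share of each perilipin in their summed level per kilobase. In fat, Plin4 made up 49.8 ± 3.1% of it in KO WAT and 52.8 ± 8.6% in WT WAT, Plin1 38.4 ± 2.5% and 32.7 ± 0.84%, and Plin2 10.3 ± 5.0% and 12.9 ± 8.8%. Plin1 took 36.5, 41.3 and 37.3% in the KO WAT libraries, against 32.5, 33.6 and 32.0% in the WT WAT libraries. These Plin1 shares did not overlap, and no test was made of them. In liver, Plin2 made up 80.4 ± 3.1% in KO and 78.5 ± 3.1% in WT libraries, Plin5 13.6 ± 2.5% and 16.3 ± 2.4%, Plin3 3.45 ± 0.30% and 2.43 ± 0.20%, and Plin4 2.50 ± 1.0% and 2.71 ± 1.4%. The Plin3 share was 3.12 to 3.69% in KO liver, against 2.22 to 2.62% in WT liver, which did not overlap either and was likewise not tested. Plin3 itself overlapped, at 6.59 to 8.15 CPM per kilobase in KO liver and 7.60 to 8.13 in WT liver. Its share therefore follows the sum, which is mostly Plin2. The summed perilipin level was 221, 186 and 233 CPM per kilobase in KO liver, against 356, 310.2 and 310.5 in WT liver. It was 1067, 1433 and 1381 in KO WAT, against 1201, 1195 and 988 in WT WAT. The liver sums, which are mostly Plin2, did not overlap and the fat sums did.

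**Figure D2:**
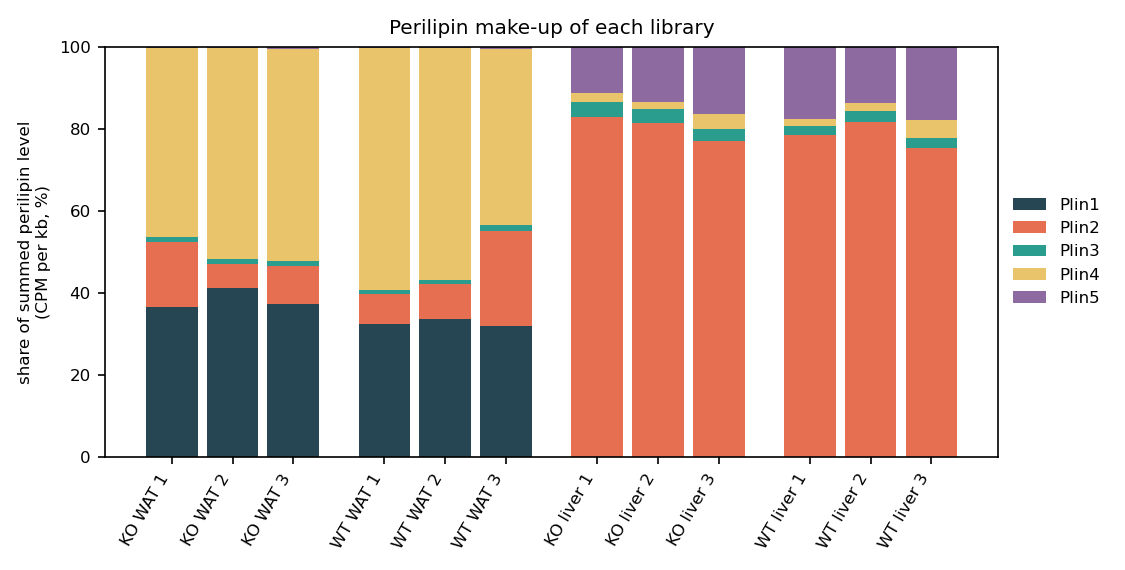
Share of each perilipin (%) in the summed perilipin level (CPM per kilobase) of every library, KO left of WT in each tissue. Plin4 and Plin1 fill most of each WAT bar and Plin2 most of each liver bar; WT WAT replicate 3 holds the most Plin2 of the fat libraries (23.0%).

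The liver comparison asked whether the droplet genes differ between KO and WT liver. No member passed the threshold (edgeR quasi-likelihood, adjusted p under 0.05), as 0.155% of 13529 genes did, and Plin1 was too low to be tested. All 9 tested members had a fitted value below 0, with a median log2 fold change of -0.55, whereas 50.1% of all genes tested were lower and their median was -0.00052. At an unadjusted p under 0.05, 4 of the 9 were lower (Plin2, Plin5, G0s2 and Fitm2) and 0 higher, against 6.24% of all genes lower. The CPM of 6 of the 9 (these 4, Cideb and Hilpda) did not overlap between the groups and were lower in KO liver, against 11.1% of all genes. Other tools drew the line elsewhere. DESeq2 called the same 4 members lower (0.502% of 11954 genes were), as did edgeR with no filter on low counts (0.747% of 25017). Limma voom called 0 members. With the trend of each library on GC content and transcript length removed, 0 members passed. Plin2 was then at -0.50, Plin5 at -0.61, G0s2 at -0.73 and Fitm2 at -0.43 (edgeR adjusted p = 0.138, 0.668, 0.549 and 0.222). The sums of hepatocyte and of macrophage markers also stood apart between these libraries, though among the macrophage markers only Spp1 did by itself. The sum of 10 hepatocyte markers was 109339 to 114521 CPM in KO liver, against 126175 to 133208 CPM in WT liver. By fitted value 8 of 10 were lower, with 0 past the threshold. Most of this sum was Alb, with 76229 to 78159 CPM in KO liver, against 87140 to 93137 CPM in WT liver. The sum of 10 macrophage markers was 151 to 179 CPM in KO liver, against 138 to 148 CPM in WT liver, with 7 of 8 tested higher and 1 past the threshold, Spp1 (0.88 ± 0.13, edgeR adjusted p = 0.0275). Neither sum overlapped between the groups. Spp1 held 44.5, 58.5 and 54.7 CPM of the macrophage sum in KO liver, against 32.4, 25.3 and 29.8 CPM in WT liver. It was the only marker in that sum whose own values did not overlap. The part of these markers in the members' values was not tested.

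Plin2, the main liver coat protein, had 642, 532 and 629.9 CPM in KO liver, against 980.2, 889.6 and 822 CPM in WT liver. The highest KO library lay well below the lowest WT library. Its log2 fold change was -0.55 ± 0.11 with a 95% interval of -0.78 to -0.32 (edgeR adjusted p = 0.0718, and 0.00140 with DESeq2). By unadjusted p it was gene 35 of the 13529 tested. Leaving out each liver library in turn gave -0.60 to -0.47.

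Plin5 had 51.8, 51.8 and 79.1 CPM in KO liver, against 131, 87.9 and 115 CPM in WT liver. The groups did not overlap, and KO replicate 3 was nearest to WT. The log2 fold change was -0.84 ± 0.21 with a 95% interval of -1.34 to -0.34 (edgeR adjusted p = 0.241, and 0.00149 with DESeq2). Without KO liver replicate 3, Plin5 passed the threshold (-1.08, edgeR adjusted p = 0.0235), as 0.122% of 13917 genes did as lower in that fit, and it was the single member that any omission of a liver library brought past it.

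G0s2 varied more among libraries, with 182, 95.5 and 137 CPM in KO liver, against 300.0, 251 and 215 CPM in WT liver. All KO values were below all WT values, and KO replicate 2 was the lowest. Its log2 fold change was -0.86 ± 0.24 with a 95% interval of -1.43 to -0.29 (edgeR adjusted p = 0.279, and 0.00119 with DESeq2). The whole G0s2 gene lies within Lamb3 on the opposite strand, and Lamb3 counts were also lower, with 115, 74 and 110 in KO liver against 203, 177 and 174 in WT liver. G0s2 itself had more counts, with 2750, 1401 and 2030 in KO liver against 4431, 3903 and 3185 in WT liver. The kit kept strand, but the strand setting of the counting is not given in the sources used here. Reads of the 2 genes therefore cannot be told apart with certainty.

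Fitm2 had 98.5, 93.6 and 113 CPM in KO liver, against 139.6, 135 and 153 CPM in WT liver. These values sat close together within each group and did not overlap between them. The log2 fold change was -0.46 ± 0.11 with a 95% interval of -0.69 to -0.23 (edgeR adjusted p = 0.136, and 0.0330 with DESeq2). An antisense gene overlapping Fitm2 had 14 counts in KO liver and 20 counts in WT liver, against 1374 or more Fitm2 counts in each liver library.

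The remaining liver members were lower by less than their error allowed a call. Cideb, at 58.4, 62.2 and 60.3 CPM in KO liver and 66.2, 67.8 and 72.9 CPM in WT liver, had narrow groups that did not overlap and a log2 fold change of -0.17 ± 0.09 (edgeR adjusted p = 0.502). Set per 10000 Alb counts, as given above, its values overlapped between KO and WT liver. Hilpda had 24, 25 and 20 counts in KO liver, against 28, 41 and 28 counts in WT liver (-0.44 ± 0.33, edgeR adjusted p = 0.609), and at this depth a change of this size could not be told from 0. Plin3 had 30.8, 24.9 and 27.5 CPM in KO liver and 29.9, 30.8 and 28.8 CPM in WT liver, which overlapped, and its 95% interval ran from -0.32 to 0.17.

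Cidec and Plin4 were spread widest. Cidec had 23.8, 8.59 and 22.5 CPM in KO liver, against 17.0, 24.9 and 50.4 CPM in WT liver, and Plin4 had 27.5, 18.5 and 48.9 CPM in KO liver, against 34.5, 38.1 and 77.6 CPM in WT liver. The groups overlapped for both genes, KO replicate 2 was the lowest of all 6 libraries in both, and WT replicate 3 was the highest. Their log2 fold changes were -0.72 ± 0.62 and -0.63 ± 0.54 (edgeR adjusted p = 0.690 and 0.692), and without WT replicate 3 they shrank to -0.17 and -0.16. Cidea, the third CIDE gene, which is low in lean liver and was named here after its values were seen, had 47, 2 and 45 counts in KO liver and 1, 61 and 176 counts in WT liver. It thus shared the highest library with Cidec and Plin4. Of the adipocyte genes, Plin1 had at most 0.299 counts per 100 Cidec counts in the liver libraries, against 45.4 to 56.1 in KO WAT and 39.9 to 41.8 in WT WAT. Adipoq had 2 counts in KO liver replicate 3 and 0 in the other liver libraries, and Lep had 0 in all 6. Cfd, an adipocyte gene too, had 185, 7 and 59 counts in KO liver, against 26, 51 and 121 counts in WT liver, so KO replicate 2 was the lowest for it as well and KO replicate 1 the highest. Retn had 4, 0 and 5 counts in KO liver, against 0, 0 and 2 in WT liver. The 9 adipocyte markers outside the members summed to 5196 to 6753 CPM in KO liver and 4713 to 6161 CPM in WT liver, which overlapped. Most of it was Pck1 (2833 to 3653 CPM in KO, 2565 to 3701 CPM in WT liver) and Car3 (2327 to 3128 and 2106 to 2641 CPM). Pck1 averaged 3352 CPM in KO liver and 2838 CPM in KO WAT, so this sum does not measure adipocyte RNA in liver. The part of adipocyte RNA in the Cidec and Plin4 counts was not tested.

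**Figure D3:**
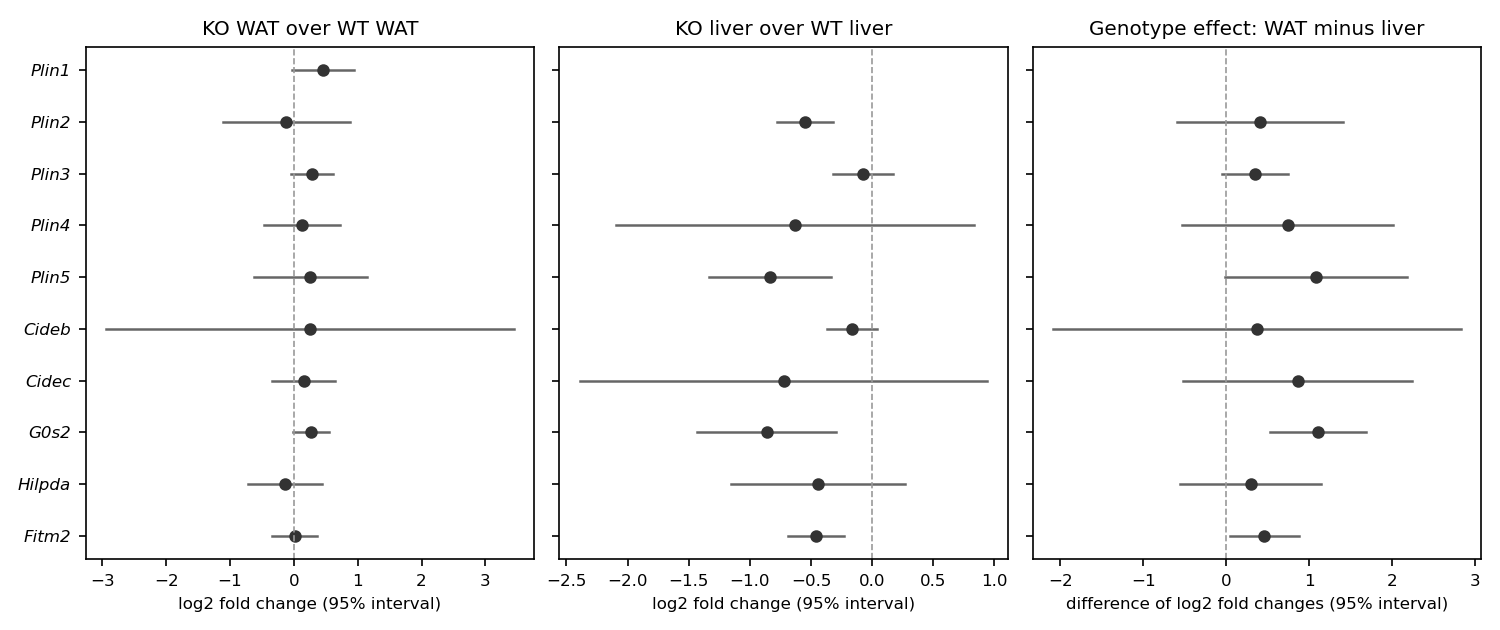
Log2 fold change of KO over WT in WAT (left) and in liver (middle) and the difference of these genotype effects, WAT minus liver (right), with 95% intervals from edgeR; Plin1 was not tested in liver and is left out on the right. In liver the points lie below 0 and the intervals of Plin2, Plin5, G0s2 and Fitm2 end below it, while in WAT each interval includes 0.

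The fat comparison asked the same of KO and WT WAT. No member passed the threshold by edgeR, DESeq2 or limma voom, and none reached an unadjusted p under 0.05 with edgeR, which 7.64% of the genes tested did. By edgeR 0% of 15919 genes were called, so no gene was. Of the 10 members, 8 had a value above 0 and 2 below (Plin2 and Hilpda), with a median log2 fold change of 0.20, whereas 49.6% of all genes were higher and their median was -0.0027. With the trend of each library on GC content and transcript length removed, Plin4, Plin5, Cidec and Fitm2 turned below 0 too. Without the fat library highest in Alb of each genotype, again 0 members and 0 genes passed (edgeR), and several values moved by over 1.5 times: Plin5 to 0.48, Plin4 to 0.41, Cidec to 0.32 and Hilpda to -0.49. Among the members G0s2 alone had groups that did not overlap and were higher in KO WAT, against 7.05% of all genes.

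G0s2 had 149, 149 and 167 CPM in KO WAT, against 124, 144 and 124 CPM in WT WAT. The gap between the groups was small beside their range. Its log2 fold change of 0.27 ± 0.12 (95% interval -0.01 to 0.55, edgeR adjusted p = 0.654) shrank to 0.033 with that trend removed. Plin1 was at 0.46 ± 0.21 (95% interval -0.02 to 0.94, edgeR adjusted p = 0.654), where KO WAT replicate 1, at 1810.0 CPM, lay among the WT WAT values.

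Plin2 was the most variable coat gene of fat, with 592, 298 and 442 CPM in KO WAT, against 307, 357 and 799 CPM in WT WAT. The groups overlapped fully, and WT replicate 3 was the highest of all fat libraries. Its log2 fold change was -0.12 ± 0.41 (edgeR adjusted p = 0.952), and without WT replicate 3 it turned to 0.42. Without the fat library highest in Alb of each genotype it was -0.63 (edgeR adjusted p = 0.461). The summed level of 10 macrophage markers moved in the same order at the top. It was 2439, 780.4 and 1332 CPM in KO WAT and 1080.3, 990.0 and 2972 CPM in WT WAT. Lyz2 and Gpnmb held 1293 and 821 CPM of it in WT replicate 3. Not every marker in it followed this order. C1qa had 105, 96.5 and 151 CPM in KO WAT and 128, 91.2 and 91.6 CPM in WT WAT. Plin2 coats droplets in macrophages too. The part of macrophages in the Plin2 counts of fat was not tested.

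Plin4 (0.13 ± 0.26), Cidec (0.15 ± 0.22), Plin3 (0.29 ± 0.15), Plin5 (0.26 ± 0.39), Hilpda (-0.13 ± 0.26) and Fitm2 (0.01 ± 0.15) overlapped between KO and WT WAT, with edgeR adjusted p-values of 0.668 to 0.986. For Fitm2 the 95% interval was -0.34 to 0.37, and its value turned to -0.0076 on library totals. Cideb, at 7 to 15 counts in KO WAT and 0 to 28 counts in WT WAT, was too low for a fold change of use (0.25 ± 1.35). Hepatocyte markers were higher in KO WAT for 10 of 10 genes by fitted value and lymphocyte markers lower for 9 of 9, with 0 past the threshold. Summed, hepatocyte markers had 2298 to 4511 CPM in KO WAT and 845 to 5293 CPM in WT WAT. Cyp2e1 alone held 1824, 2871 and 1248 CPM of this in KO WAT and 2700, 1571 and 735 CPM in WT WAT. In KO WAT these sums did not follow the library order of Alb. Lymphocyte markers had 10.3 to 28.1 CPM in KO WAT and 12.9 to 60.7 CPM in WT WAT. Epithelial markers summed to 103 to 125 CPM in KO WAT, against 64.8 to 85.2 CPM in WT WAT, which did not overlap, with 4 of 4 tested higher and 0 past the threshold. The part of these markers in the members' values was not tested.

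**Figure D4:**
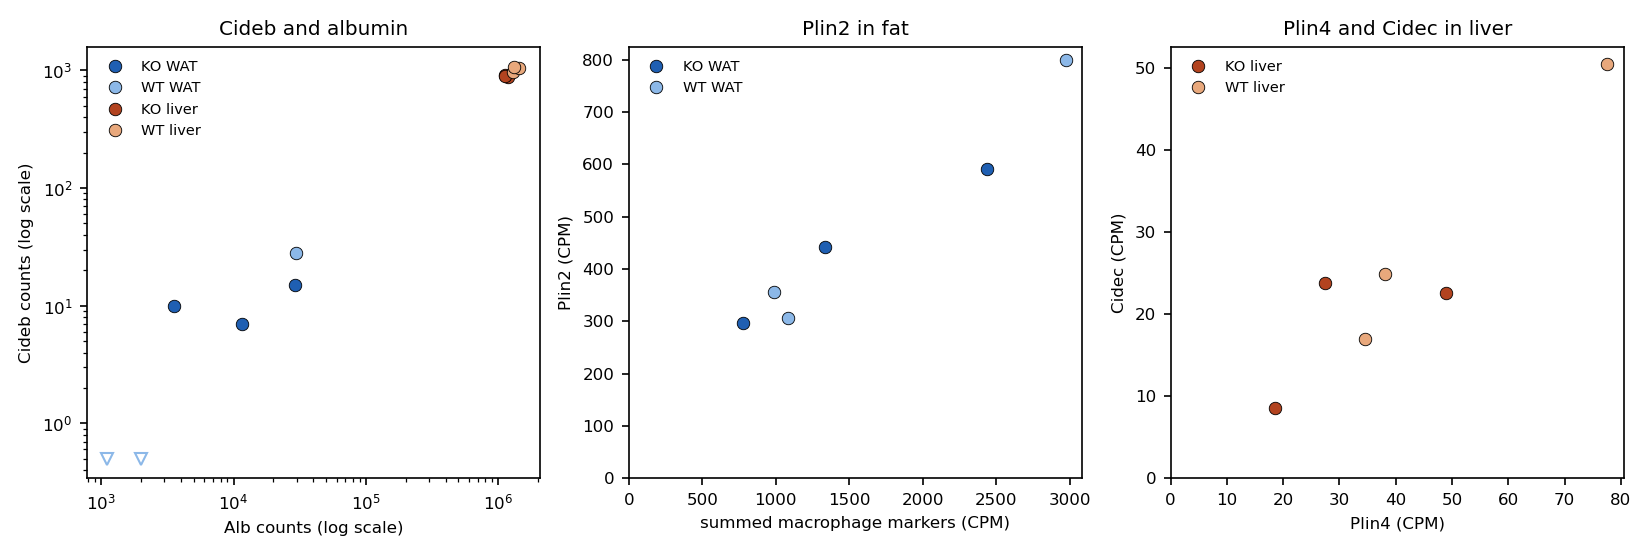
Left, Cideb against Alb counts per library (log scales; open triangles are 0 counts of Cideb). Middle, Plin2 CPM against the summed CPM of 10 macrophage markers in the 6 WAT libraries. Right, Cidec against Plin4 CPM in the 6 liver libraries. WT WAT replicate 3 is highest on both axes of the middle panel (799 and 2972 CPM), and WT liver replicate 3 on both axes of the right one (77.6 and 50.4 CPM).

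Whether the genotype effect differed between the tissues was tested by itself, as the KO over WT effect in WAT minus that in liver. By edgeR 0 members and 0% of 16857 genes passed the threshold. Plin1, with 1 count in liver, gives no difference. The other 9 members had a difference above 0, with a median of 0.46, against -0.0022 over all genes tested. That of Plin2 turned to -0.033 without the fat library highest in Alb of each genotype. The liver effect is subtracted here and was below 0 for all 9, so their shared sign partly restates the liver values. At an unadjusted p under 0.05 there were 2 members, G0s2 and Fitm2, both higher, against 6.88% of all genes. DESeq2 called 1 member higher, G0s2, against 1.04% of 12490 genes, and limma voom called 0.

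For G0s2 the difference was 1.11 ± 0.27 with a 95% interval of 0.53 to 1.69 (edgeR adjusted p = 0.214, and 0.0194 with DESeq2). With the trend on GC content and length removed it was 0.76. Plin5 had a difference of 1.08 ± 0.49 (edgeR adjusted p = 0.379) and Fitm2 one of 0.46 ± 0.19 (adjusted p = 0.338). Without the fat library highest in Alb of each genotype, Plin5 passed (1.37, edgeR adjusted p = 0.0438), as did 713 genes over all, 515 of them higher (3.01% of 17119 tested), and G0s2 (1.16) and Fitm2 (0.67) had adjusted p-values of 0.0610 and 0.0659. Cideb also passed there, but its WT WAT libraries are then both at 0 and no fold can be given. Cidec (0.86 ± 0.62), Plin4 (0.74 ± 0.57), Plin2 (0.41 ± 0.46), Plin3 (0.34 ± 0.19), Hilpda (0.29 ± 0.40) and Cideb (0.37 ± 1.09) had wider errors relative to their size.

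The promoters of the 4 members with an unadjusted p under 0.05 in liver are shown because these 4 had the lowest p-values of the members there, though none passed the threshold. Each sequence (RefSeq, GRCm38.p6, all minus strand) runs 5′ to 3′ over the 250 bases before the transcription start and the first 2 transcribed bases, at chr4:86670058-86670309, chr17:56117547-56117798, chr1:193273187-193273438 and chr2:163472628-163472879. Capitals mark AGGTCA, the hexamer that nuclear receptors such as the PPARs bind, and ACGTG, the core of the hypoxia response element, on either strand.
Plin2: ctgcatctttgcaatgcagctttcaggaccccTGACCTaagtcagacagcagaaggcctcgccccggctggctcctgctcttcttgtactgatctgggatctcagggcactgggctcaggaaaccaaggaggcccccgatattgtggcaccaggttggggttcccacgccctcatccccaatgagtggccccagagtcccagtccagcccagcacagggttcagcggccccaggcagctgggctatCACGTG
Plin5: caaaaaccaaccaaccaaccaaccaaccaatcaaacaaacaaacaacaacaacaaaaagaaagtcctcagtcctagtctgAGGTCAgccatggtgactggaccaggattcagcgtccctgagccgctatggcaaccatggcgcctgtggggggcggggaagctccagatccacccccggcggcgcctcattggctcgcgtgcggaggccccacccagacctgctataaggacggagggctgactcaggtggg
G0s2: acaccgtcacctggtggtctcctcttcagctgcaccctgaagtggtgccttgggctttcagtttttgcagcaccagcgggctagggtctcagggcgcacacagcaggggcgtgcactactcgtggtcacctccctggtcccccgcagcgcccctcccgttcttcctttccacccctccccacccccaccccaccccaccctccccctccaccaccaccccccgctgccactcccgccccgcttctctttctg
Fitm2: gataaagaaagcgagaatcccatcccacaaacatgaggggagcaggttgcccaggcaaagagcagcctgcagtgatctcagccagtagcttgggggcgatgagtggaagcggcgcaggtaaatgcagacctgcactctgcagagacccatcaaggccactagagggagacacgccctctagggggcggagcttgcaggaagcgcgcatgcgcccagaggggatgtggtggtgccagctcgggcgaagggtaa
The tandem repeat of the hexamer with 1 base between (AGGNCANAGGNCA), the usual PPAR element, was in 0 of the 13 listed promoters of the 10 members and in 0.344% of all 32851 promoters over the same window. AGGTCA was in 2 of the 13, those of Plin2 (218 bases before the start, on the opposite strand) and Plin5 (170 bases before it), against 14.2% of all promoters. ACGTG was in 2 of the 13, against 16.7%: in Plin2 as the palindrome CACGTG at the start site, where the matches of both strands overlap, and in a Hilpda promoter. These letters say nothing of binding, and no match says only that this window lacks them. Plin4 and Plin5 are neighbours on chromosome 17, both on the minus strand and 1797 bases apart.

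Other genes of droplet biology were counted in the same way. The lists were chosen with earlier results of these data known, so their counts describe and do not test. Of 15 PPAR target genes known from fasting, 15 of 15 tested were lower in KO liver by fitted value (median -0.46). Over all genes tested, 50.1% were lower and 0.155% passed the threshold. Of the 15, 1 passed: Acot1, which releases fatty acids from acyl-CoA, fell (-1.58 ± 0.14, edgeR adjusted p = 0.00116). Fgf21, a fasting hormone of the liver, was at -1.79 ± 0.40 (edgeR adjusted p = 0.160). In KO WAT 5 of the 15 were higher and 10 lower, none past the threshold, with Vnn1 at -0.94 ± 0.28 and Pdk4, which spares glucose, at -1.10 ± 0.40. Acot1 has near-identical paralogs, so its counts may be shared with them.

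Genes of droplet formation, lipolysis and control passed the threshold in neither tissue, and the 3 with the smallest p-values of each list are named. Of 18 genes of triglyceride synthesis and droplet formation, 7 were higher and 11 lower in KO liver (median -0.044), led by Cav1 (1.03 ± 0.25), Rab18 (0.40 ± 0.10) and Pcyt1a (0.24 ± 0.09). In KO WAT 11 were higher and 7 lower (median 0.070), led by the seipin gene Bscl2 (0.41 ± 0.15) and the acyltransferases Dgat1 (0.35 ± 0.13) and Dgat2 (0.75 ± 0.32). Of 18 lipolysis genes, 6 were higher and 12 lower in KO liver (median -0.092), led by Pnpla2, which encodes ATGL (-0.34 ± 0.10, edgeR adjusted p = 0.229), the monoglyceride lipase Mgll (-0.43 ± 0.13) and Aadac (0.30 ± 0.09). In KO WAT 11 of these were higher and 7 lower (median 0.12), led by Pnpla3 (0.83 ± 0.18, edgeR adjusted p = 0.601), Hsd17b11 (-0.27 ± 0.13) and the hormone-sensitive lipase Lipe (0.41 ± 0.21). Of 17 other droplet proteins, 8 were higher and 9 lower in KO liver (median -0.0024), led by Mgat1 (-0.31 ± 0.11), Mettl7b (-0.21 ± 0.10) and Aifm2 (-0.19 ± 0.11). In KO WAT 13 were higher and 4 lower (median 0.17), led by the sterol synthesis enzymes Nsdhl (0.61 ± 0.22) and Lss (0.44 ± 0.16) and by Osbpl2 (0.30 ± 0.13). Of 17 regulators, 6 were higher and 11 lower in KO liver (median -0.17), led by the fasting factor Creb3l3 (-0.32 ± 0.10), Esrra (-0.35 ± 0.12) and Tfeb (-0.41 ± 0.15), and 10 were higher and 7 lower in KO WAT (median 0.14), led by Esrra (0.65 ± 0.13), Srebf1 (0.77 ± 0.20) and Cebpb (0.60 ± 0.18).

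Beyond group means, the members had partners among the 9540 protein-coding genes expressed in all libraries, ranked by Pearson's r of log2 CPM deviations from the group mean over the 12 libraries. These values describe libraries that share depth and RNA make-up within a sample, and each named gene is the top of that many candidates. Plin2 was nearest to Myo1f (r = 0.98), a myosin of blood cells that had 62.9, 16.2 and 37.9 CPM in KO WAT and 17.7, 26.9 and 101 CPM in WT WAT, and to Daglb (0.97). Plin4 was nearest to Dirc2 (0.95), Plin5 to Abhd15 (0.95) and Nfyc (0.94), and Cidec to Sap30l (0.94) and Pgrmc2 (0.93). G0s2 was nearest to Nhp2 (0.96) and Stoml1 (0.93), Plin3 to Cnnm2 (0.94) and Gga2 (0.91), and Fitm2 to Nrg4 and Prodh (0.93 each). Among the members themselves, Plin4 went with Fitm2 (0.87) and Cidec (0.86), and Plin2 ran against Fitm2 (-0.76). Plin1, Cideb and Hilpda were too low in 1 tissue to be placed.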

How the data were processed

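RNA-seq libraries of liver and inguinal white fat were made from total RNA extracted with TRIZOL (2 µg per library) with a directional NEBNext kit, per the labels' protocols. The authors deposited whole-number read counts per gene, with gene lengths, not normalised as far as the values show. CASAVA 1.8, HISAT2 and the builds GRCm38 and mm10 are named per the submitters' processing notes, while no source used here gives the counting program or its strand setting.

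The members and gene lists were chosen with earlier results of these data known. All members are named, and of each other list the genes past the threshold and otherwise up to 3 with the smallest p. Some genes that this rule takes are left out of the text. Each tissue was fitted over all genes in R 4.3.3 with edgeR 4.0.16 (TMM, filterByExpr, robust quasi-likelihood F test), each genotype's tissues likewise, and the difference of genotype effects on all 12 libraries. The threshold was a Benjamini-Hochberg adjusted p under 0.05 over all genes tested, and SE and 95% intervals come from that test. DESeq2 1.42.0 and limma voom 3.58.1 were alternatives, as were other scalings and filters, a replicate block, offsets for GC and length, log2 Alb as a covariate and leaving out each library. The use of library totals, and the omission of the 2 Alb-richest fat libraries, were chosen after seeing the data. The steps were tested on simulated counts. Seeds were searched in the longest 3′ UTRs of GENCODE M21, and promoters are RefSeq's. At 14531438 to 15971178 counts per library, 3 counts are 0.188 to 0.206 CPM. Intervals on counts cover counting error only.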

Additional observations from a re-analysis of the deposited data

Results flagged for a closer look

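G0s2 was singled out because its groups did not overlap in either tissue and differed in direction. Every KO WAT library was above every WT WAT library, and every KO liver library below every WT liver library. Over all genes tested, 7.05% did not overlap and were higher in KO WAT, and 11.1% did not and were lower in KO liver. The share of genes doing both was not counted. The G0s2 value in WAT, 0.27, shrank to 0.033 with the GC and length offsets. The difference of the genotype effects, WAT minus liver, was 1.11 on the log2 scale. Tested by itself it did not pass the threshold with edgeR (adjusted p = 0.214), and over the alternatives its adjusted p ran between 0.0194 and 0.625.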

How the results depend on the processing

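In liver, where 0 members and 21 genes passed, no filter gave 4 members and 378 genes, DESeq2 4 and 138, and leaving out 1 library 0 to 1 and 5 to 34. Limma voom and no robust step gave 3 genes each, the GC and length offsets 4, and a fit of all 12 libraries 1. In WAT, where 0 genes passed, no filter gave 29, DESeq2 50, the fit of all 12 libraries 3 and leaving out 1 library 0 to 1, with 0 members in each. For the difference between tissues (0 genes, 0 members), no filter gave 21 genes, DESeq2 210 and 1 member, the fit without the 2 fat libraries highest in Alb 713 and 2, and leaving out 1 library 0 to 34 and 0 to 1. The cause was not tested.

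Direction turned for small values. With the GC and length offsets, KO over WT WAT was -0.0075 for Plin4, -0.058 for Plin5, -0.071 for Cidec and -0.021 for Fitm2, and WAT over liver was -0.18 for Fitm2 in WT and -0.077 for Plin3 in KO mice. With Alb as a covariate, Plin2 in WAT was 0.083 and Fitm2 -0.016. On library totals, Fitm2 in WAT was -0.0076, Plin3 0.76 between WT tissues and G0s2 0.17 between KO tissues. Without the 2 fat libraries highest in Alb, the Plin2 difference between tissues was -0.033.

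Leaving out 1 library, the KO over WT value in WAT ran between -0.38 and 0.42 for Plin2, -0.083 and 0.29 for Plin4, -0.086 and 0.60 for Plin5, -0.40 and 0.043 for Hilpda, -0.11 and 0.10 for Fitm2 and -0.33 and 6.44 for Cideb, whose fitted value depends on the prior count once 1 group is at 0. The Cideb difference between tissues ran between -0.19 and 6.22, and Plin3 between WT tissues between -0.13 and 0.014.

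Deviations of same-numbered libraries had correlations of -0.027 to 0.165. Differently numbered libraries were not compared, so these values cannot settle whether the numbers pair libraries. With the replicate block, liver gave 28 genes and WAT 0, with 0 members in both.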
